A study of Homo sapiens with 4 samples.

Results

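The miR-378 family was described in HEK293T cells from 7 entries of a table of 2656 mature miRNAs: hsa-miR-378a-3p, hsa-miR-378a-5p, hsa-miR-378c, hsa-miR-378d, hsa-miR-378f, hsa-miR-378g and hsa-miR-378i, written below without the species prefix. The members were taken by name, with their levels and their difference between the groups already known, so both are given below as descriptions and support nothing further. The 4 remaining entries named miR-378 (b, e, h and j) were not members. The lowest member, miR-378g, had a mean of 57.9 CPM (read counts corrected for library size by TMM scaling), and the highest non-member, miR-378e, had 16.9 CPM. HEK293T is a human embryonic kidney line transformed with adenovirus DNA and expressing the SV40 large T antigen. All 4 libraries came from such cells with a landing pad, a genomic site made to accept a transgene. In 2 libraries the pad had the PGK promoter, from the phosphoglycerate kinase gene, and in 2 it had the CAG promoter, which joins a cytomegalovirus enhancer to chicken beta-actin sequence. The series set the groups side by side to find miRNAs whose level differed. The lines were monoclonal and the number of clones is unstated in the sources used here, so promoter and clone cannot be told apart. Nothing says whether replicates were separate cultures, so every spread given here is that between these libraries and may be technical.

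A miRNA is cut from a hairpin in a longer transcript, and either arm of the hairpin can be kept and loaded onto an Argonaute protein. The loaded strand finds messenger RNAs mainly through its seed, bases 2 to 8 from its 5′ end, and so miRNAs with the same seed form a family with overlapping targets. The miR-378a hairpin lies within PPARGC1B, which encodes PGC-1β, a transcriptional coactivator of mitochondrial and fat metabolism, and miR-378 is known from muscle, heart and brown fat.

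RefSeq (GRCh38.p14) held mature sequences for 6 of the 7 members. They are shown because the family is defined by its seed and because the entries differ by so few bases that reads can be hard to assign. The sequences run 5′ to 3′, with the seed in capitals.
miR-378a-3p: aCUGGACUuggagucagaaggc
miR-378i: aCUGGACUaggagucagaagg
miR-378c: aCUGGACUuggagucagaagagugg
miR-378f: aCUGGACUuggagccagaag
miR-378g: aCUGGGCUuggagucagaag
miR-378a-5p: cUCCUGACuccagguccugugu

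Positions are counted from the 5′ end, with the base of miR-378a-3p first. miR-378i differed from miR-378a-3p by U9A, just beyond the seed, over its 21 bases. miR-378f differed by U14C over its 20 bases and kept the seed. miR-378g differed by A6G, which lies in the seed, so it belongs to another seed family. miR-378c is the longest at 25 bases: its first 20 bases are those of miR-378a-3p, and both differ from there on by G21A and C22G. A read of miR-378a-3p that ends at base 20 is therefore also the start of miR-378c, and the sources used here do not say how such reads were assigned. miR-378a-5p, from the opposite arm of the miR-378a hairpin, has an unrelated seed. miR-422a, which is not named miR-378, has the same seed and differs from miR-378a-3p by G10A and A12G. Of 2370 mature names in the RefSeq table, 7 had the seed CUGGACU.

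The hairpins are spread over the genome. GENCODE release 29 (GRCh38) places MIR378A at chromosome 5, 149732825 to 149732890, on the plus strand in an intron of PPARGC1B, 2527 bases from the start of that gene and on the same strand. MIR378I (22, 41923222 to 41923297, minus strand) overlaps an annotated exon of TNFRSF13C, on the same strand, a gene of the TNF receptor superfamily active in B cells. MIR378G (1, 94745860 to 94745900, minus strand) lies in an intron of SLC44A3-AS1. MIR378C (10, 130962588 to 130962668, minus strand) and MIR378F (1, 23929070 to 23929147, plus strand) lie inside no other annotated gene. miR-378d can come from MIR378D1 (4, 5923275 to 5923328, minus strand, intron of C4orf50) and from MIR378D2 on chromosome 8, and the counts do not separate them. The deposited tables hold no coordinates, so every position was looked up by hairpin name, and the authors' build may differ.

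Reads of miR-378a-3p made up most of the family. In total, entries named miR-378 took 5.52% of all counts in PGK replicate 1, 5.22% in PGK replicate 2, 3.32% in CAG replicate 1 and 4.03% in CAG replicate 2. The library totals behind these shares were 7927615, 7331437, 13780279 and 2845945 counts. miR-378a-3p held 80.2%, 80.9%, 82.0% and 81.7% of the miR-378 reads in the same order of libraries, and it ranked 5th of all entries in the table by mean CPM. The 95% exact (Clopper-Pearson) binomial intervals of these 4 shares ran from 80.1% to 82.1% in all, and like every interval here they cover counting error only, since PCR copies without molecular identifiers do not count separate molecules. Nearly all of the rest was miR-378i, with 14.8% and 13.8% in PGK and 14.4% and 13.2% in CAG libraries. The make-up by these 2 entries thus moved by a few percent of the reads between libraries, while the family's part of the library was lower in both CAG libraries than in both PGK libraries.

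The smaller members took a few percent together. miR-378c held 3.22% and 3.45% of miR-378 reads in PGK and 2.19% and 3.06% in CAG replicates 1 and 2. miR-378d held 1.02% and 1.08% in PGK, 0.662% in CAG replicate 1 and 1.30% in CAG replicate 2. For both entries CAG replicate 1 was the lowest library. miR-378a-5p, miR-378f and miR-378g each stayed under 1%, and the 4 entries outside the members added between 0.0300% and 0.0645%. Ligation and amplification preferences enter every count, so shares of different entries are less comparable than 1 entry between libraries.

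All 7 members stood lower in both CAG libraries than in both PGK libraries. miR-378a-3p was at 43960 and 43128 CPM in PGK and at 29138 and 30386 CPM in CAG libraries, replicate 1 first here and below. Means were 43544 ± 588 CPM in PGK and 29762 ± 883 CPM in CAG libraries (SD, n = 2), a log2 fold change (CAG minus PGK) of −0.55 (SE 0.14). miR-378i was at 8082 and 7373 CPM in PGK and 5127 and 4891 CPM in CAG libraries, a log2 fold change of −0.63 (SE 0.15). miR-378a-5p was at 233 and 224 CPM in PGK and 138 and 155 CPM in CAG libraries, a log2 fold change of −0.65 (SE 0.18). The groups did not overlap for these 3 entries, and the lowest PGK library was 1.42 to 1.45 times the highest CAG library.

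The low members followed at a smaller scale. miR-378f was at 94.35 and 94.40 CPM in PGK and 53.3 and 60.6 CPM in CAG libraries (log2 fold change −0.74, SE 0.19). miR-378g, the entry with the changed seed, was at 68.6 and 70.7 CPM in PGK and 41.6 and 50.9 CPM in CAG libraries (−0.61, SE 0.21). In both, the 2 PGK libraries lay close together and the 2 CAG libraries were further apart.

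miR-378c and miR-378d differed most between the CAG replicates. miR-378c was at 1767 and 1840 CPM in PGK and at 778 and 1139 CPM in CAG libraries (log2 fold change −0.91, SE 0.20). miR-378d was at 557 and 575 CPM in PGK and at 235 and 482 CPM in CAG libraries (−0.67, SE 0.29). CAG replicate 1 was far below the other libraries for miR-378d, while CAG replicate 2 was only 1.15-fold below the lower PGK library. Without CAG replicate 1 the log2 fold change of miR-378d was −0.22, and without CAG replicate 2 it was −1.26. For miR-378c these values were −0.66 and −1.21.

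**Figure D1:**
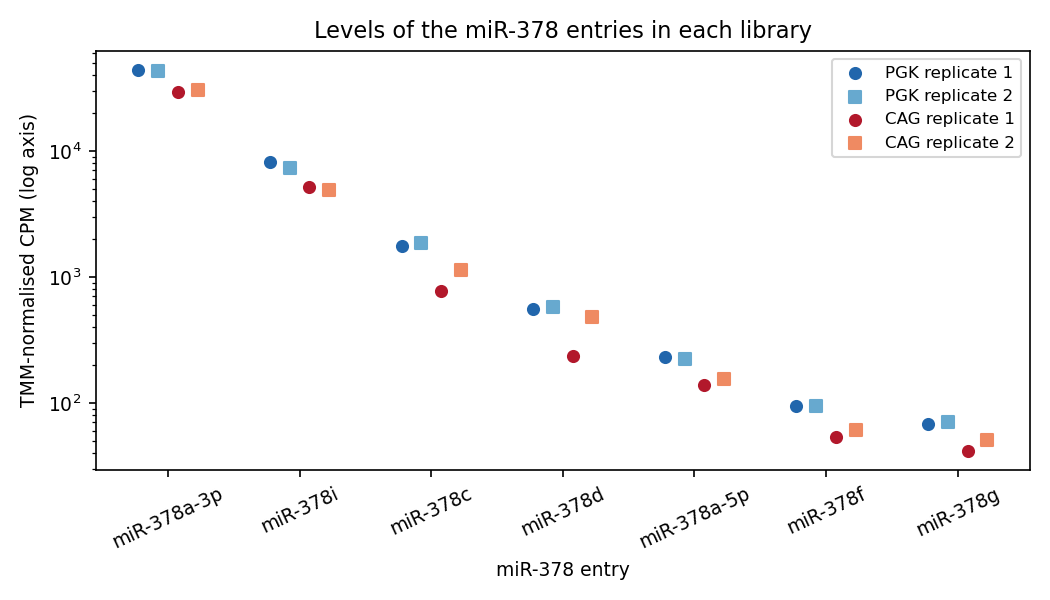
TMM-normalised CPM (log axis) of the 7 miR-378 entries, with 1 point for each of the 4 libraries. Both CAG points lie below both PGK points for every entry, from miR-378a-3p near 43544 CPM in PGK cells down to miR-378g near 69.6 CPM, and the CAG points are widest apart for miR-378d and miR-378c.

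The members are read against the whole table as follows. All 7 passed the low-count filter, and their median log2 fold change was −0.65, against −0.0042 over all 773 tested miRNAs. The edgeR quasi-likelihood fit called 5 of 7 lower in CAG cells at an adjusted p under 0.05 over all tested miRNAs, where 6.08% of all were called lower and 14.2% in either direction. The called entries were miR-378a-3p, miR-378a-5p, miR-378c, miR-378f and miR-378i. Non-overlap with both CAG libraries lower held for 7 of 7 members and for 27.4% of all tested miRNAs. The members were proposed with this contrast known and share sequence, so nothing is read from these counts. The number of called members was 0 without PGK replicate 1 and 0 without PGK replicate 2, each with 5 at an unadjusted p under 0.05 (edgeR), while DESeq2 and limma-voom on all 4 libraries called 5. It was 3 without CAG replicate 1 and 7 without CAG replicate 2, and was 1 (miR-378c) with the replicate number as a block and 2 (miR-378c and miR-378i) without the low-count filter. In each of these fits the sign of every member was kept.

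The deposited seed table gave the same picture, from the same reads. The family CUGGACU stood at 55178 and 53819 CPM in PGK and at 35312 and 36183 CPM in CAG libraries, the 5th most abundant of 2094 families. Its counts matched the sum of the 9 entries with that seed (miR-378a-3p, b, c, d, e, f, h and i and miR-422a) within 1 read in every library. Its log2 fold change was −0.61 (SE 0.13) and it was called lower, as were 4.67% of 642 tested families. This fit was not repeated under the alternatives used for the members, and most of the family's reads were miR-378a-3p. The families UCCUGAC and CUGGGCU had exactly the counts of miR-378a-5p and miR-378g.

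The arms of the miR-378a hairpin were compared next, because both come from 1 transcript and scaling cancels in their ratio. The 5p arm had 1861 and 1608 reads in PGK and 1771 and 478 reads in CAG libraries, and the 3p arm had 351306, 309304, 375204 and 93749. The 5p arm was therefore 0.527% and 0.517% of the hairpin's reads in PGK and 0.470% and 0.507% in CAG libraries. The 95% exact interval was 0.448% to 0.492% in CAG replicate 1, below the value of the other 3 libraries, and 0.463% to 0.555% in CAG replicate 2, which includes both PGK values. Between 189 and 212 reads of the 3p arm were counted for each read of the 5p arm. The mean log2(5p/3p) was −7.57 ± 0.02 in PGK and −7.67 ± 0.08 in CAG cells (SD, n = 2), a difference of −0.10 that is close to the spread between the CAG replicates.

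Among 91 hairpins whose arms both averaged 10 CPM or more, only 6 had a more uneven arm ratio than miR-378a, and the median size of log2(5p/3p) was 3.30. The change of the ratio between groups was smaller than that of miR-378a in 22 of them, and its median size was 0.19. The 2 arms of miR-378a thus kept a lopsided ratio in all 4 libraries.

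**Figure D2:**
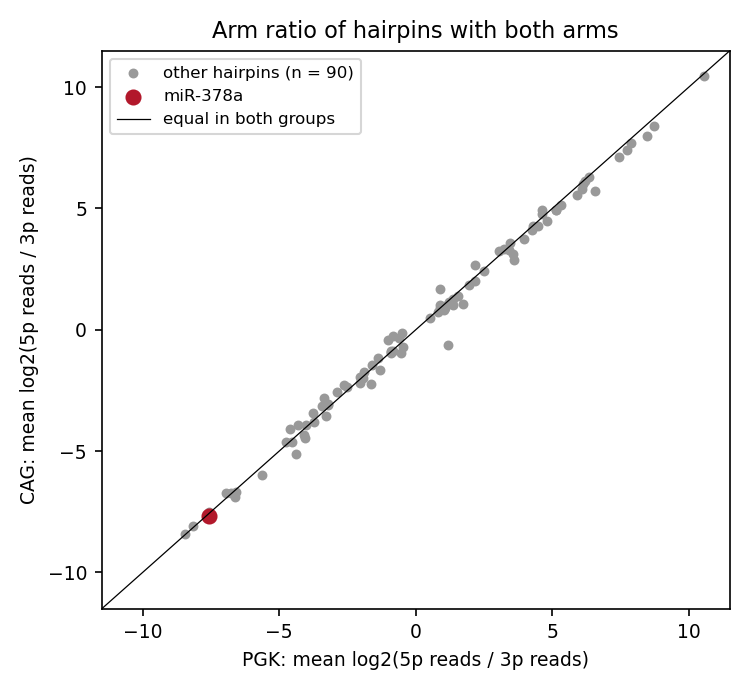
Mean log2(5p reads / 3p reads) in CAG cells against that in PGK cells for 91 hairpins, with the line of equality. The red point is miR-378a, at −7.57 in PGK and −7.67 in CAG cells, near the 3p end of the range and close to the line.

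Whether the paralogues kept step with miR-378a-3p was described by reads of each per 1000 reads of miR-378a-3p. miR-378i gave 184 and 171 in PGK and 176 and 161 in CAG replicates 1 and 2. The groups overlapped, and the highest library was 1.14 times the lowest. miR-378f gave 2.15 and 2.19 in PGK and 1.83 and 1.99 in CAG libraries, with a highest-to-lowest ratio of 1.20. miR-378g gave 1.56 and 1.64 in PGK and 1.43 and 1.67 in CAG libraries, with a ratio of 1.17. miR-378a-5p gave 5.30 and 5.20 in PGK and 4.72 and 5.10 in CAG libraries, with a ratio of 1.12. These 4 entries stayed in a nearly fixed proportion to miR-378a-3p, although miR-378f and miR-378a-5p gave less in both CAG libraries than in both PGK libraries. However, miR-378i, miR-378f and miR-378g each differ from miR-378a-3p by 1 base over their length. Reads of miR-378a-3p assigned to such an entry by error would also keep a nearly fixed proportion. The part of such reads was not tested, so the ratios of miR-378i, miR-378f and miR-378g may not measure separate paralogues.

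miR-378c and miR-378d did not keep that proportion in CAG replicate 1. Here too reads may be shared: a read of miR-378a-3p that ends at base 20 also starts miR-378c. RefSeq held no sequence for miR-378d to compare. The part of shared reads was not tested, so these 2 ratios may not measure separate paralogues either. miR-378c gave 40.2 and 42.7 in PGK replicates 1 and 2, 26.7 in CAG replicate 1 and 37.5 in CAG replicate 2, with 95% exact intervals of 26.2 to 27.2 and 36.2 to 38.8 in the CAG libraries. miR-378d gave 12.7 and 13.3 in PGK replicates 1 and 2, 8.07 in CAG replicate 1 and 15.9 in CAG replicate 2, with intervals of 7.79 to 8.37 and 15.1 to 16.7 in the CAG libraries. The PGK replicates were close to each other and the CAG replicates lay on either side of them for miR-378d, so its mean change of −0.20 on the log2 scale describes neither CAG library. Without CAG replicate 1 that change was 0.29. For miR-378c the mean change was −0.39, with both CAG libraries below both PGK libraries; it was −0.14 without CAG replicate 1 and −0.63 without CAG replicate 2. miR-378g also changed sign without CAG replicate 1, from −0.05 to 0.07. Its 95% exact intervals were 1.31 to 1.55 in CAG replicate 1 and 1.42 to 1.96 in CAG replicate 2. No interval was computed for the change itself.

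**Figure D3:**
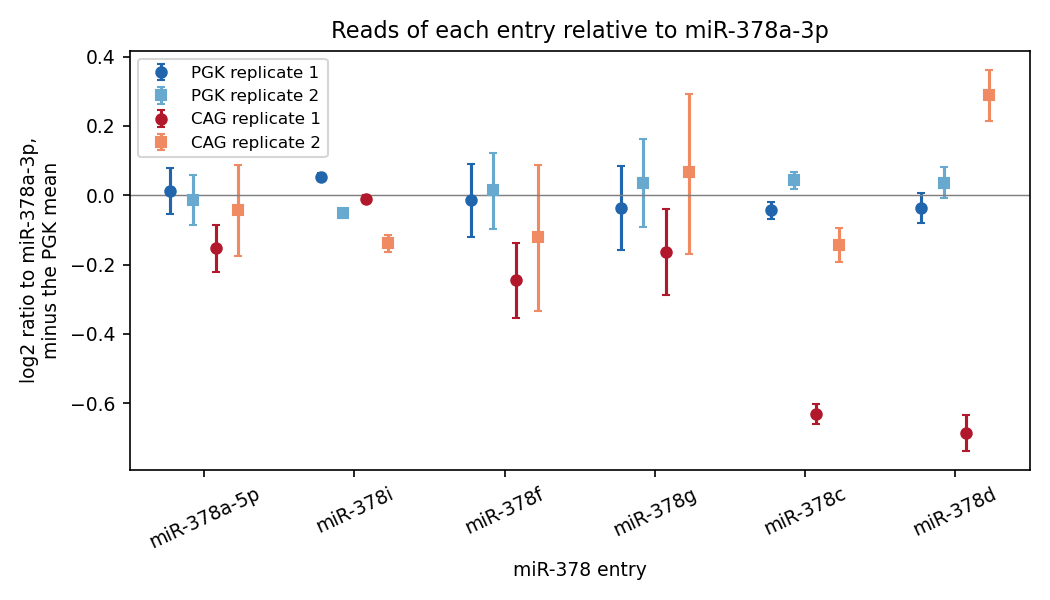
Log2 ratio of each entry's reads to those of miR-378a-3p in each library, minus the mean of the PGK libraries; bars are 95% exact binomial intervals and cover counting error only. miR-378a-5p, miR-378i, miR-378f and miR-378g each span at most 0.26 over the 4 libraries, while CAG replicate 1 lies low for miR-378c and miR-378d and CAG replicate 2 lies high for miR-378d.

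For comparison, 433 tested miRNAs averaging 10 CPM or more, with a read in every library, had a median highest-to-lowest ratio to miR-378a-3p of 1.86. Only miR-378a-3p was left out of them, so the other members are included. Of these, 2 varied less against miR-378a-3p than miR-378a-5p did, 7 less than miR-378i, 14 less than miR-378g and 19 less than miR-378f. For miR-378c the number was 141 and for miR-378d it was 241. miR-378a-3p was itself lower in CAG cells, and the median log2 change of the ratio to it over the 433 was 0.56 (CAG minus PGK). The members were taken with their lower CAG level known, so small ranges against miR-378a-3p were largely fixed in advance. Nothing is read from these ranks. Beyond the members, miR-422a gave 1.34 and 1.50 reads per 1000 in PGK and 1.55 and 1.25 in CAG libraries, a ratio of 1.24. miR-378e, the highest of the non-member entries, gave 0.470 and 0.537 in PGK, 0.200 in CAG replicate 1 and 0.597 in CAG replicate 2, the same order of libraries as miR-378d from only 165, 166, 75 and 56 reads. miR-378b, miR-378h and miR-378j had between 2 and 47 reads in a library.

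The CAG replicates also differed by the length of the miRNA. In log2 CPM, CAG replicate 1 minus CAG replicate 2, the median was −0.19 for 14 entries of 20 bases, −0.02 for 54 of 21 bases, 0.02 for 216 of 22 bases, 0.22 for 67 of 23 bases and 0.56 for 5 of 25 bases. Shorter entries lay lower, at −1.03 for 2 of 17 bases, −1.22 for 5 of 18 bases and −0.40 for 9 of 19 bases. The median was 0.52 for 13 entries of 24 bases, and 1 entry of 26 bases was at 0.35. Over 386 miRNAs with a RefSeq length the Spearman correlation with length was 0.44 for the CAG replicates and 0.08 for the PGK replicates, as a description across miRNAs that share these libraries. miR-378f and miR-378g, of 20 bases, were at −0.19 and −0.29, miR-378i, of 21 bases, was at 0.07, and miR-378a-3p and miR-378a-5p, of 22 bases, were at −0.06 and −0.17. These members lay near the median of their length. miR-378c was at −0.55, while the 4 remaining entries of 25 bases lay between 0.55 and 0.88. miR-378d was at −1.03, and 12 of 436 miRNAs, itself included, were as low; miR-378e was at −1.60, the lowest of the 436. The part of read length in these differences was not tested. Between the groups, the Spearman correlation of length with the log2 fold change was 0.08.

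**Figure D4:**
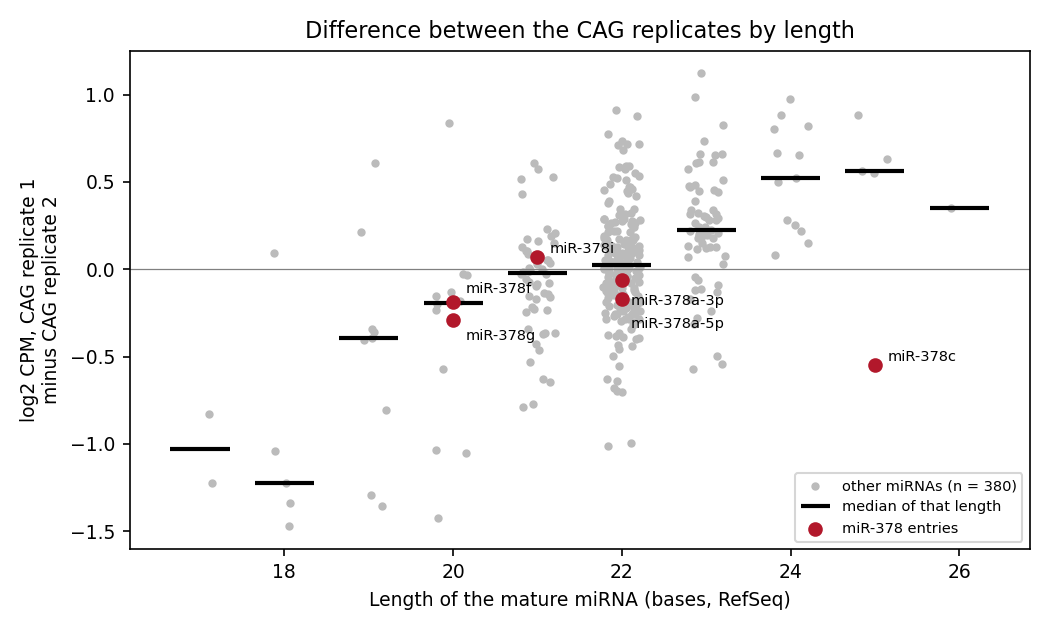
Difference in log2 CPM between CAG replicate 1 and CAG replicate 2 against mature length in bases for 386 miRNAs, shifted sideways at random within a length so that points can be seen; black bars are medians. Of the 6 red miR-378 entries, 5 sit near the bar of their length and miR-378c, at −0.55, sits below all other entries of 25 bases.

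The miRNAs with the profile most like that of miR-378a-3p were found by the distance between log2 CPM values centred over the 4 libraries, among 221 others averaging 100 CPM or more. The nearest was miR-185-5p (distance 0.03), at 2572 and 2539 CPM in PGK and 1759 and 1806 CPM in CAG libraries. The hairpin's own 5p arm, miR-378a-5p, came next (0.13), followed by miR-152-3p, miR-1180-3p and miR-652-3p (0.13, 0.13 and 0.14), and miR-378i was 6th (0.14). As above, the miR-378i reads may include reads of miR-378a-3p assigned by error, which was not tested. miR-378c and miR-378d were 78th and 123rd, at distances of 0.52 and 0.72. The members were taken with their lower CAG level known, and that difference enters the distance. Small distances of members were therefore partly fixed in advance, and nothing is read from their ranks.

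Other miRNAs in introns of metabolic or muscle genes were listed for comparison: miR-33a and miR-33b of the SREBF genes of sterol synthesis, miR-103a-3p and miR-107 of the PANK genes of coenzyme A synthesis, and miR-208a-3p, miR-208b-3p and miR-499a-5p of myosin genes. Of 9 entries 6 were tested, and edgeR, at an adjusted p under 0.05, called none of them (1 at an unadjusted p under 0.05); DESeq2 and limma-voom also called 0. Their median log2 fold change was −0.33. miR-103a-3p was at 14174 and 14017 CPM in PGK and 14411 and 12210 CPM in CAG libraries, with a log2 fold change of −0.08 (SE 0.15), and miR-107 was at −0.18 (SE 0.18). miR-33b-3p and miR-33a-3p were at −0.65 (SE 0.26) and −0.47 (SE 0.28), from levels of at most 23.5 CPM.

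Markers of muscle and brown fat, tissues in which miR-378 is abundant, and markers of blood were also read. In the muscle list 3 of 7 entries were tested and 2 were called lower in CAG cells by edgeR, and 1 was called by DESeq2. miR-1-3p was at 104 and 94.0 CPM in PGK and 16.5 and 15.6 CPM in CAG libraries, a log2 fold change of −2.61 (SE 0.22). miR-133a-3p had between 0 and 20 reads in a library. miR-499a-5p was at 6.63 and 7.53 CPM in PGK and 8.15 and 8.10 CPM in CAG libraries and was not called (log2 fold change 0.20, SE 0.29). miR-208a-3p and miR-208b-3p had 0 reads in every library, and the list summed to 113 and 104 CPM in the PGK and 24.9 and 23.7 CPM in the CAG libraries, most of it miR-1-3p. In the brown fat list (miR-193b-3p, miR-365a-3p and both arms of miR-455) none of 4 passed in edgeR, limma-voom or DESeq2, nor did any have an unadjusted p under 0.05 in these fits, and it summed to 1402 to 1592 CPM in PGK and 1084 to 1341 CPM in CAG libraries. The 6 blood markers summed to at most 2.27 CPM in a library, and 0 of them were tested. The muscle and brown fat sums were both lower in both CAG libraries than in both PGK libraries, as the miR-378 entries and 27.4% of all tested miRNAs were. Most of the brown fat sum was miR-455-5p, and both arms of miR-455 were lower in both CAG libraries. The groups overlapped for miR-193b-3p (149 and 79.1 CPM in PGK, 100 and 120 CPM in CAG libraries). They also overlapped for miR-365a-3p (183 and 85.3 CPM in PGK, 101 and 112 CPM in CAG libraries). The part of these lists in the result was not tested.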

How the data were processed

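Small RNA of 4 HEK293T libraries was analysed, 2 PGK and 2 CAG; groups and replicate numbers came from the sample titles. Per the labels' protocols, RNA was extracted with Trizol and libraries were made with an NEBNext small RNA kit. The authors deposited whole-number read counts per mature miRNA and per seed family; trimming, aligner, build and the rule for reads that fit several entries are unstated in the sources used here. Replicates of a pair differed by 41.7 (PGK) and 79.4 (CAG) in chi-square per degree of freedom, above counting noise, and each was kept. Counts were fitted over the whole table in R 4.3.3 with edgeR 4.0.16 (quasi-likelihood, TMM, low-count filter with minimum count 10 and total 15, group as the only term), with Benjamini-Hochberg adjustment over 773 miRNAs. Standard errors were derived from the fold change and the F statistic. The test was tested on simulated data. A single read was worth 0.0777 to 0.324 CPM. Ratios and shares used raw counts, with Python 3.11.15 and scipy 1.17.1. Alternatives were other scalings and filters, DESeq2 1.42.0, limma-voom (limma 3.58.1), the replicate block, each library left out, the 5 most abundant miRNAs removed, and thinning. Every member is named; others follow the rules stated where they appear. miR-378b, h and j, miR-378e and miR-422a are the other entries with the name or seed. Members and lists were chosen with earlier results of these data known; the comparison with miRNA length was chosen after seeing the data.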

Additional observations from a re-analysis of the deposited data

How the results depend on the processing

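The number of all miRNAs called, 110, was 63 with the replicate block and 16 to 162 with 1 library left out; the lone library of a group is then assumed to vary like the other group. The number of members called lower, 5, was 1 with the replicate block, 2 without the low-count filter and 0 to 7 with 1 library left out. The causes were not tested. The labels state no pairing of replicate numbers between the groups. The correlation of deviations was 0.04 over 436 miRNAs, which from so few libraries cannot exclude pairing. The block is therefore given as a check. With 2 libraries a group it leaves 1 residual degree of freedom. The median log2 fold change of the members ran from −0.74 to −0.55 over all 13 alternatives. Removing the 5 most abundant miRNAs took out miR-378a-3p itself, so that median is over 6 members. The arm ratio change of −0.10 became −0.17 after thinning to 2845945 reads, and −0.04 to −0.15 with 1 library left out. Against miR-378a-3p, the change of miR-378d was 0.29 without CAG replicate 1 and −0.69 without CAG replicate 2, and that of miR-378g was 0.067 and −0.16. The mean share of miR-378a-3p over the libraries, 81.2%, ran from 80.9% to 81.5% over its alternatives. The shallowest library, CAG replicate 2, limits entries of few reads: a count of 0 there allows 0.972 CPM.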
